A study of Mus musculus with 12 samples.

Results

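The genes described here are 9 transcription factors and markers of the cells that renew olfactory sensory neurons: Sox2, Kit, Ezh2, Neurog1, Gadd45g, Hes6, Neurod1, Insm1 and Sox11. They were taken by symbol from a table of 39395 genes, and each symbol matched 1 row. They were measured by RNA sequencing of whole olfactory mucosa from male mice at postnatal day 30, on a mixed 129S6;C57BL/6J background. The study compared 6 wildtype animals with 6 animals of the genotype delta large deletion, which lack 408217 bp of chromosome 7 (chr7:102509797-102918014), described in the series as an enhancer of class I odorant receptors. Each animal gave 1 library. The labels do not say whether the deletion was on one or both copies of the chromosome, and give no litter for any animal.

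Olfactory sensory neurons die and are replaced throughout life from basal cells of the epithelium. Horizontal basal cells form a mostly quiet reserve. Globose basal cells divide, and pass through a series of states set by basic helix-loop-helix transcription factors, with Neurog1 acting before Neurod1, which comes last before the cell leaves the cycle and becomes an immature neuron. SOX factors and the Notch pathway set how many cells stay in the dividing pool. The choice of an odorant receptor comes late in this series. Bulk RNA cannot tell fewer cells of a type apart from less RNA per cell.

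Wild-type libraries held 13942401 to 18044908 recovered reads, and deletion libraries 10091239 to 18612011. The 30 listed genes that overlap the deleted interval held between 1522 and 2000 reads in each wild-type library and at most 1 in any deletion library. Libraries differed in stray signal. They were compared by 96 genes of the Defa, Defb, Krtap and Tas2r families, which are nearly silent in this tissue. For these, the third deletion library held 3.44 reads per kb of exon. The wild-type libraries had 0.533 to 0.793 and the other deletion libraries 0.496 to 1.23. At that rate, stray reads would be 11% of the Neurog1 reads of deletion replicate 3 and 8.48% of its Kit reads, but 0.755% of its Sox11 reads. With each library's rate taken off, the log2 fold change of Neurog1 was 0.22 in place of 0.24 and that of Kit 0.13 in place of 0.15. The share of listed genes with a read was 65.2% to 69.3% in wild-type libraries. It was 80.6%, 94.6%, 73.1% and 75.6% in deletion replicates 2, 3, 4 and 5, and 67.2% and 67.4% in deletion replicates 1 and 6. The raised libraries were all of the deletion genotype, and the part of this in the comparison of genotypes was not tested.

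The sequences just upstream of 4 members are shown to compare promoters with and without E-boxes, the letters that proneural factors such as Neurog1 and Neurod1 are known to bind. They come from RefSeq on GRCm38.p6, which held starts for 8 of the 9 members. Each stretch runs 5′ to 3′ on the gene's strand and ends at the RefSeq start, or earlier where an annotated exon of the gene begins. Capitals mark CANNTG, the E-box pattern, which reads the same on both strands. Neurog1 (chr13:56252181-56252430, minus strand), Neurod1 (chr2:79456752-79456886, minus strand), Hes6 (chr1:91414039-91414288, minus strand) and Sox11 (chr12:27342719-27342968, minus strand) read as follows.
Neurog1: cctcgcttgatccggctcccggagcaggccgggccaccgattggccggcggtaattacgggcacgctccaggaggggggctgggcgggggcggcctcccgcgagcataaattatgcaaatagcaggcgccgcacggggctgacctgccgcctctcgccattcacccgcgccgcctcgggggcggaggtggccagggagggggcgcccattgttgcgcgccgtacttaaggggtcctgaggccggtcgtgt
Neurod1: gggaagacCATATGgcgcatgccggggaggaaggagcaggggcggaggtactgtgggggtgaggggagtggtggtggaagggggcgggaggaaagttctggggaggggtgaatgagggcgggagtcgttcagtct
Hes6: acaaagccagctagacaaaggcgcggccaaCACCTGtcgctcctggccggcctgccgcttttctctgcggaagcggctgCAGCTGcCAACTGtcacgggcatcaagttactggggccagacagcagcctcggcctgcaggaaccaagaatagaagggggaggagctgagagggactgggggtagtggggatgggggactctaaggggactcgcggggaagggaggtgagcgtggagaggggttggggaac
Sox11: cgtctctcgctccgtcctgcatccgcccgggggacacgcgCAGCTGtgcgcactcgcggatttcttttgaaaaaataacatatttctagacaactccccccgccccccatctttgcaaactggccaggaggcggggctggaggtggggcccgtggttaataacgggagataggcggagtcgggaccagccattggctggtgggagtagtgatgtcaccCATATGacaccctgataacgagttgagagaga

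In the 250 bases upstream of the RefSeq start, Hes6 held 3 E-boxes at its first start and 1 at its second, Gadd45g held 3, Sox11 held 2 and Neurod1 held 1. None was found for Neurog1, Sox2, Kit or Ezh2. The Ezh2 window began inside an annotated exon of Ezh2, so it is not all promoter sequence. The windows of Kit reached an annotated exon after 179 and 175 bases and that of Neurod1 after 135. Exon bases were searched as well. Of 32851 mouse promoter windows of the same length, 66.2% held at least 1, with a median of 1. The form CAGATG, searched on both strands, was in none of these windows and in 14.4% of all. The SOX-type letters ACAAAG, searched on both strands, occurred 2 times at the first Hes6 start, 1 time at its second start, and 1 time each for Sox2 and Ezh2, and stood in 16.5% of all windows. These are matches of letters and say nothing of binding.

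All 9 genes were expressed in every animal, with between 47 and 7037 reads per library, and all passed the expression filter. Levels between genes are compared per exon length, as RPKM (reads per kb of exon, scaled to library size). In wild-type animals Sox11 was highest at 37.6 ± 5.07 (SD, n = 6) and Hes6 followed at 32.7 ± 4.65. Sox2 was at 25.3 ± 3.17 and Insm1 at 19.96 ± 2.34. Ranges of neighbours in this order overlapped down to Insm1, although Hes6 was above Sox2 and Sox2 above Insm1 in 6 of 6 animals. Insm1 was separated from Neurod1, at 8.67 ± 1.33, with no overlap.

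The lower part of the order held Ezh2 (7.33 ± 0.441) and Gadd45g (7.23 ± 2.36), whose order held in only 3 of 6 animals. Ezh2 overlapped its neighbours Neurod1 and Gadd45g. Kit was at 2.85 ± 0.192 and Neurog1 at 2.45 ± 0.466 (all SD, n = 6). Their ranges overlapped, and Kit did not overlap Gadd45g. The level per exon length therefore spans from Neurog1, in the 39.7th percentile of the 17320 genes tested, to Sox11, in the 94.3rd.

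**Figure D1:**
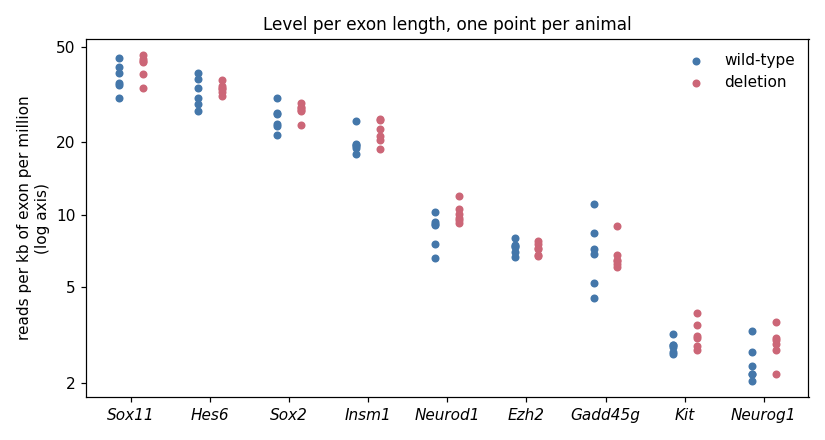
Level of each gene per exon length (RPKM, log axis) with 1 point per animal, 6 wild-type (blue) and 6 deletion (red). Sox11, Hes6, Sox2 and Insm1 form the upper band, and in wild-type animals Insm1 does not overlap Neurod1.

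No member passed the test between genotypes. By limma on log2(normalized count + 1), adjusted over all 17320 genes, 0 of 9 were higher and 0 lower, and each adjusted p was 0.955. Over all genes tested, 86 passed, a share of 0.497% (0.052% higher and 0.445% lower). Without adjustment, 1 of the 9 had a limma p under 0.05 and it was higher in deletion animals. That was so for 4.39% of all genes (2.02% higher and 2.37% lower). On the recovered reads, edgeR's quasi-likelihood test called 0 members and 0.514% of all genes, with 1 member and 4.3% of genes under 0.05 before adjustment. DESeq2 called 0 members and 0.56% of genes, with 1 member and 4.22% of genes under 0.05 before adjustment. In 7 of 9 members the fold change was above 0 (45.9% of all genes), and their median log2 fold change was 0.14, against -0.01 for all genes tested.

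Among the genes of the stem and dividing states, Sox2 encodes the SOXB1 factor that marks basal and supporting cells. Its normalized count ran from 659 to 930 in wild-type animals (median 764) and from 715 to 864 in deletion animals (median 844). The deletion range lay inside the wild-type range. Deletion over wild-type, the log2 fold change was 0.10 ± 0.08 (SE, n = 6 per group), with a 95% interval of -0.06 to 0.26. Sox2 is a single-exon gene (chr3:34650405-34652461, plus strand, ENSMUSG00000074637.7) inside an intron of the non-coding gene Sox2ot.

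Sox2ot, on the same strand and without exonic overlap, had 15.5 to 27.9 normalized counts in wild-type and 25.3 to 59.1 in deletion animals. Its log2 fold change was 0.53 (limma, adjusted p = 0.955), so it did not pass. At counts this low, the stray reads of the third deletion library weigh more, and their part in this value was not tested.

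Kit (chr5:75574916-75656722, ENSMUSG00000005672.12) encodes the receptor tyrosine kinase for stem cell factor and marks globose basal cells. Its normalized count ran from 349 to 425 in wild-type animals, with a median of 376. In deletion animals it ran from 364 to 497, with a median of 409. Deletion replicates 3 and 4 were above every wild-type animal, and the other deletion animals lay within the wild-type range. Its log2 fold change was 0.15 ± 0.08 (SE; 95% interval -0.02 to 0.32). It was 0.10 without deletion replicate 3, and -0.02 without deletion replicates 2, 3, 4 and 5. The unadjusted limma p fell from 0.0831 to 0.0351 without wild-type replicate 4 and to 0.0356 without deletion replicate 6, with adjusted p-values of 0.999 and 0.997.

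Kit is also a marker of mast cells and melanocytes. Of 8 listed mast cell genes, Hdc alone passed the filter, and Cpa3, Cma1, Tpsb2, Tpsab1, Mrgprb1, Mrgprb2 and Fcer1a had at most 9 reads in any library. The 8 listed genes summed to 49.98 to 56.1 CPM (reads scaled to library size) in wild-type and 48.1 to 65.6 in deletion animals, nearly all of it Hdc. The melanocyte genes Dct, Mlana and Tyrp1 also had at most 9 reads, Tyr at most 13 and Pmel at most 15. The 6 melanocyte genes summed to 12.3 to 18.2 CPM in wild-type and 14.4 to 18.1 in deletion animals, most of it Mitf. Kitl, the ligand of Kit, had mean normalized counts (± SD) of 1063 ± 212 in wild-type and 1105 ± 135 in deletion animals, a log2 fold change of 0.07 ± 0.12 (SE).

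Ezh2 (chr6:47530139-47595341, ENSMUSG00000029687.16) encodes the enzyme of Polycomb repressive complex 2, which methylates histone H3 and is high in dividing progenitors. It ran from 664 to 791 normalized counts in wild-type animals (median 733) and from 644 to 770 in deletion animals (median 714). It varied least of the 9, with a residual SD of 0.09 on the log2 scale, against a median of 0.18 over all genes tested. Between genotypes it differed by a log2 fold change of -0.03 ± 0.06 (SE), with a 95% interval of -0.16 to 0.10, or folds of 0.894 to 1.07. The antisense RNA Gm26625 shares 174 bp of exon with it and had at most 17.9 normalized counts.

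The proneural factors come next. Neurog1 (chr13:56250478-56252163, ENSMUSG00000048904.5) commits globose basal cells to the neuronal line. It ran from 50.7 to 81.9 normalized counts in wild-type animals (median 56.8) and from 54.5 to 88.7 in deletion animals (median 73.1). In wild-type animals 5 of 6 lay at or below 67.0, with replicate 6 alone above. Its log2 fold change was 0.24 ± 0.14 (SE), and the 95% interval ran from -0.06 to 0.55. With 47 to 91 reads per library, counting alone gives a coefficient of variation of 12.2%, while the wild-type animals varied by 18.8%. The interval includes folds of up to 1.46.

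Neurod1 (chr2:79452521-79456751, ENSMUSG00000034701.9) drives the last step before the immature neuron. Its normalized count ran from 268 to 414 in wild-type animals (median 369) and from 370 to 468 in deletion animals (median 400). All 6 deletion animals were above the wild-type median, and 2 of them, replicates 3 and 6, above the highest wild-type animal. The means were 352 ± 53.0 and 410 ± 35.9 (SD, n = 6). This gave a log2 fold change of 0.23 ± 0.10 (SE; 95% interval 0.03 to 0.43), with an unadjusted limma p of 0.0270 and an adjusted p of 0.955. The exact permutation test gave a two-sided p of 0.0476, or 0.954 after adjustment over all genes tested, and 4.5% of all genes had an exact p under 0.05.

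The Neurod1 estimate leans on the low wild-type animals. Wild-type replicates 4 and 5 had 310 and 268, and the unadjusted limma p was 0.0585 without replicate 4 and 0.0792 without replicate 5. It was 0.0706 without deletion replicate 3, 0.0542 without deletion replicate 6, and 0.00956 without wild-type replicate 6. The log2 fold change stayed between 0.16 and 0.28 in all 25 alternatives. Cerkl, on the same strand, shares 201 bp of exon with Neurod1 and had 74.3 to 139 normalized counts in wild-type and 101 to 130 in deletion animals (log2 fold change 0.13). The sources used here do not say how reads in the shared stretch were assigned.

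Hes6 (chr1:91411483-91414038, ENSMUSG00000067071.8) encodes a helix-loop-helix protein that inhibits HES1 and so favours differentiation. It ran from 725 to 1057 normalized counts in wild-type animals (median 866) and from 838 to 968 in deletion animals (median 889). The deletion animals all fell within the wild-type range. Its log2 fold change was 0.04 ± 0.08 (SE; 95% interval -0.13 to 0.21).

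Gadd45g (chr13:51846678-51848468, ENSMUSG00000021453.2) encodes a small protein tied to cell cycle exit. It ran from 78.5 to 194 normalized counts in wild-type animals (median 123) and from 105 to 156 in deletion animals (median 111). The wild-type animals enclosed the deletion animals entirely. Their coefficient of variation was 32.7%, the highest of the 9 and above the 9.02% that counting gives. Between genotypes the log2 fold change was -0.04 ± 0.18 (SE), and its 95% interval of -0.41 to 0.33 is the widest of the 9. A 1.26-fold rise and a fall to 0.752 both lie inside it.

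Insm1 and Sox11 mark the end of the series. Insm1 (chr2:146221921-146225020, ENSMUSG00000068154.5) encodes a zinc finger repressor that moves progenitors to their terminal division. It ran from 823 to 1127 normalized counts in wild-type animals (median 891) and from 857 to 1167 in deletion animals (median 991). Wild-type replicate 6 stood alone at the top of its group, and the other 5 wild-type animals lay between 823 and 906. For Insm1 the log2 fold change was 0.14 ± 0.08 (SE; 95% interval -0.03 to 0.32).

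Sox11 (chr12:27334264-27342574, ENSMUSG00000063632.6) encodes a SOXC factor that switches on neuronal genes in newborn neurons. It ran from 3803 to 5504 normalized counts in wild-type animals (median 4587) and from 4149 to 5744 in deletion animals (median 5273). Deletion replicate 6 was above every wild-type animal and deletion replicate 2 was below all but 1. For Sox11 the log2 fold change was 0.14 ± 0.09 (SE; 95% interval -0.05 to 0.33).

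**Figure D2:**
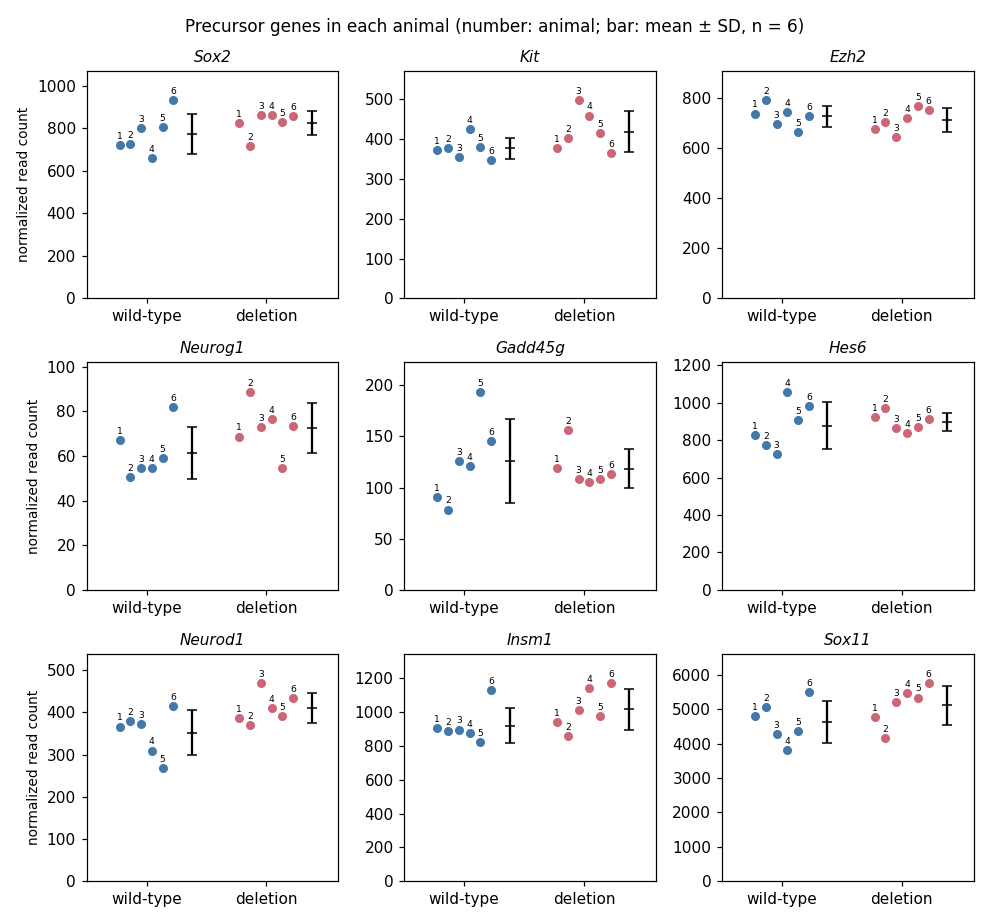
Normalized read count of each gene in each animal (y axis from 0, 1 panel per gene), with the animal's number above its point and the group mean ± SD beside it (n = 6). The groups overlap in all 9 panels, and wild-type replicate 6 lies at 1127 for Insm1, above the other wild-type animals.

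The ranges of the genotypes overlapped for all 9 genes. Of all genes tested, 0.629% had ranges that did not overlap. Wild-type replicate 6 was the animal with the highest precursor genes: 8 of 9 were above their own mean over the 12 animals. The mean deviation of all 9 in that animal was 0.15 on the log2 scale. The other wild-type animals averaged -0.14 to -0.05, and the deletion animals were at most 0.10. Without wild-type replicate 6, the genes Neurod1, Insm1, Neurog1, Sox11 and Sox2 had unadjusted limma p-values of 0.00956, 0.0180, 0.0320, 0.0434 and 0.0463. After adjustment 0 of 9 passed (smallest adjusted p 0.761). That animal was the highest wild-type animal for each of these genes, so leaving it out raises their fold changes by construction. Without deletion replicate 2, the unadjusted limma p was 0.0174 for Neurod1, 0.0260 for Sox11 and 0.0298 for Insm1. Again 0 of 9 passed after adjustment (smallest adjusted p 0.659). The share of all genes under 0.05 in these refits is not given here, so the p-values carry no comparison with other genes.

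The authors' deposited table gives the same comparison as wild-type over deletion, and with its sign turned its log2 fold changes were 0.15 for Neurod1, 0.11 for Kit, 0.11 for Neurog1 and -0.02 for Ezh2. The value for Neurog1 in the authors' deposited table is thus below the 0.24 given above, and all 9 of the authors' deposited values were closer to 0 than those of the limma fit. DESeq2 run here on the recovered reads gave 0.25 for Neurog1, near the limma value. The deposited estimates may be of another kind, and the cause of the gap was not tested. In the authors' deposited table each of the 9 had an adjusted p of 0.988.

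**Figure D3:**
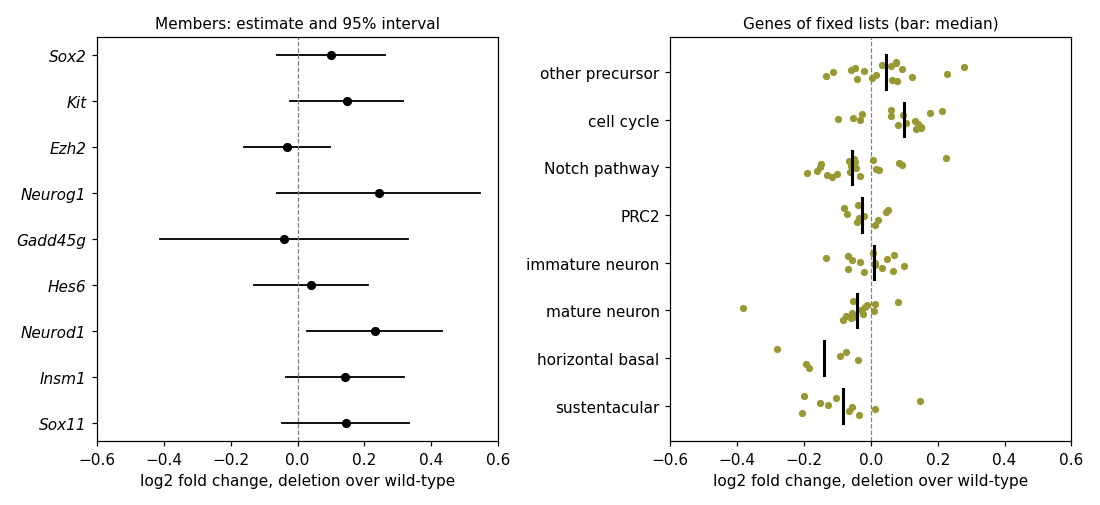
Log2 fold change of deletion over wild-type for the 9 genes with 95% limma intervals (left) and for each tested gene of 8 lists (right, 1 point per gene, bar at the median). The interval of Neurod1, 0.03 to 0.43, is the only one of the 9 that does not include 0, before adjustment.

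Other genes of the same cells were read from fixed lists, described by counts only. Of 18 tested genes of globose basal cells and precursors outside the 9, 0 passed in either direction (background 0.497%). In 12 the fold change was above 0 (45.9% of all genes), and the median was 0.05 on the log2 scale. Ccnd1, cyclin D1, had the smallest unadjusted p of the list but did not pass. Its mean normalized count (± SD) was 971 ± 153 in wild-type and 1176 ± 171 in deletion animals, a log2 fold change of 0.28 ± 0.11 (SE; limma, adjusted p = 0.955). Cxcr4, a chemokine receptor of precursors, was at -0.13 and Cdkn1c, a cell cycle inhibitor, at 0.12.

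Of 16 cell cycle genes, 0 passed and 12 were above 0 (45.9% of all genes), with a median of 0.10. Top2a, the topoisomerase of dividing cells, was at 0.15 ± 0.07 and Cenpf, a kinetochore protein, at 0.15 ± 0.08 (SE, log2 fold change). Ccna2, cyclin A2, was at 0.14. Their summed level was 416 to 529 CPM in wild-type and 465 to 546 in deletion animals.

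In the Notch pathway, which holds cells in the dividing pool, 0 of 20 tested genes passed. Of the 20, 6 were above 0 (45.9% of all genes), with a median of -0.06. The ligand Jag1 was at -0.13 ± 0.06, and the receptors Notch3 and Notch1 were at -0.16 ± 0.07 and -0.19 ± 0.11 (SE, log2 fold change). Each had an adjusted limma p of 0.955. Hes1, the Notch target that Hes6 inhibits, was at -0.15 ± 0.10 (SE).

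Of 10 other Polycomb repressive complex 2 subunits, 0 passed and 4 were above 0 (45.9% of all genes). They lay between -0.08 and 0.05 on the log2 scale, with the median at -0.03. Phf1 was at -0.08, Jarid2 at -0.07 and Eed, a core subunit, at -0.04. Of 15 listed relatives of the members, 10 were tested and 0 passed. Neurog2, Neurog3 and Sox1 averaged 0.804, 0.136 and 0.173 normalized counts in wild-type animals, so the measured proneural and SOXB1 signal came from Neurog1, Neurod1 and Sox2.

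Markers of the cells before and after the precursors gave 0 calls as well. All 6 tested horizontal basal cell genes were below 0 (median -0.14), where 45.9% of all genes tested were above 0. Col17a1, a collagen of their attachment to the basal lamina, was lowest at -0.28 ± 0.09 (SE; limma, adjusted p = 0.722), with the keratins Krt14 at -0.19 and Krt5 at -0.19. Their sum was 120 to 142 CPM in wild-type and 110 to 139 in deletion animals. Immature neuron genes had a median of 0.01 over 14, and mature neuron genes a median of -0.04 over 14. Sustentacular genes had a median of -0.08 over 10, with Cyp1a2 at -0.21 and Gstm2 at -0.15, both detoxifying enzymes.

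The remaining lists also gave 0 calls. Leukocyte genes had a median of -0.16 over 9, with Cd74 at -0.25 (limma, adjusted p = 0.787). Bowman's gland genes had a median of -0.10 over 8, glial genes -0.10 over 8, and microvillous cell genes -0.03 over 6. Erythroid genes had a median of 0.27 over 6, with sums of 38 to 131 CPM in wild-type and 60.0 to 135 in deletion animals. The part of these cells in the precursor values was not tested.

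Variation between animals of one genotype was then compared across the 9 genes. Each gene's log2 value had its group mean subtracted, and all 36 pairs were correlated over the 12 animals with permutation within genotype. Insm1 and Sox11 varied most closely, with Pearson r 0.79 and Spearman rho 0.77 (permutation p = 0.00277 and 0.00687, n = 12). After adjustment over 36 pairs these were 0.0997 and 0.124, so the pair did not pass. It was r = 0.69 within wild-type and 0.91 within deletion animals, and 0.65 without the 2 animals farthest from the median of Insm1.

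Insm1, Sox11, Sox2 and Neurod1 gave the 5 highest values of r. The remaining pair among them, Sox2 and Neurod1, was lower at r = 0.44 and rho 0.48 (permutation p = 0.244 and 0.165, adjusted 0.749 and 0.581). Its r was 0.07 without the 2 animals farthest from the median of Sox2. Sox2 had r = 0.71 with Sox11 and 0.69 with Insm1, where rho was lower at 0.48 and 0.55 (permutation p for r 0.0178 and 0.0171, adjusted 0.214 for both; for rho 0.145 and 0.0780, adjusted 0.581 and 0.503). Without the 2 animals farthest from the median of Sox2, both wild-type, r was 0.43 and 0.55. Neurod1 had r = 0.66 with Insm1 and rho 0.79 (permutation p = 0.0241 and 0.00185, adjusted 0.216 and 0.0666). Neurod1 and Sox11 had r = 0.66 and rho 0.62 (permutation p = 0.0321 and 0.0474, adjusted 0.231 and 0.427). Without the 2 animals farthest from the median of Neurod1, r was 0.47 with Insm1 and 0.69 with Sox11.

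Hes6, Gadd45g, Neurog1, Kit and Ezh2 were in none of the pairs with the highest r. Neurog1 and Neurod1, consecutive steps of the pathway, had r = 0.24 and rho 0.15 (permutation p = 0.501 and 0.673, adjusted 0.749 and 0.808). Without the 2 animals farthest from the median of Neurog1, r was -0.11. Gadd45g had r = 0.50 with Hes6 (rho 0.62, permutation p = 0.233 and 0.0838, adjusted 0.749 and 0.503) and -0.56 with Ezh2 (rho -0.61, permutation p = 0.0546 and 0.0439, adjusted 0.328 and 0.427). These were 0.43 and -0.55 without the 2 farthest animals. The median r of the 36 pairs was 0.02, with 19 above 0.

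**Figure D4:**
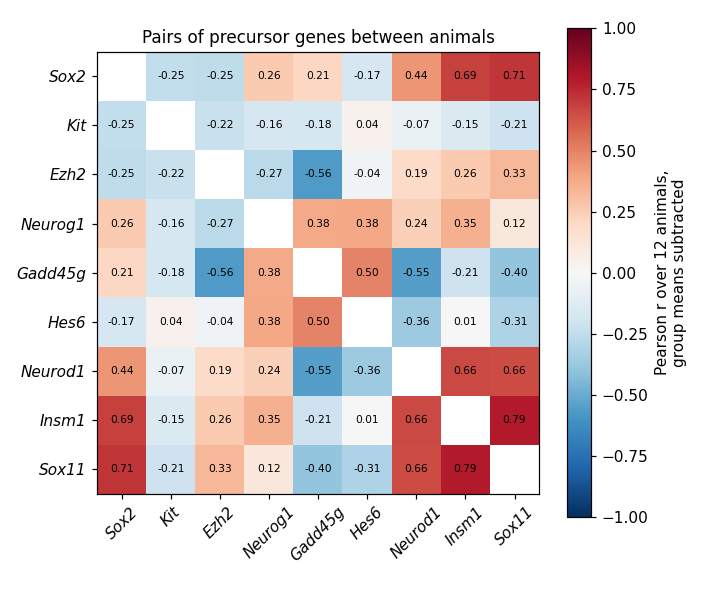
Pearson r for each pair of the 9 genes over 12 animals after subtracting each genotype's mean, on a colour scale from -1 to 1. The highest values, up to 0.79, lie among Insm1, Sox11, Neurod1 and Sox2, though Sox2 with Neurod1 is at 0.44. Gadd45g has negative values with Ezh2 (-0.56) and Neurod1 (-0.55).

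The same residuals were set against the mean z-score of each of the 16 lists, 144 relations in all. One passed after adjustment, and by rank only. Sox2 was lower in animals with higher mature neuron markers, with rho -0.90 (permutation p = 0.00031, adjusted 0.0446) and r -0.81 (permutation p = 0.00103, adjusted 0.10). The relation had r = -0.95 within wild-type and -0.67 within deletion animals, and -0.80 without the 2 animals farthest from the median of the score. Values of one library share its scaling. The mature neuron genes, which include the olfactory marker protein Omp, summed to 10852 to 14084 CPM in wild-type and 10885 to 13746 in deletion animals.

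Of the relations that did not pass, Ezh2 had r = 0.76 with the other subunits of its complex (rho 0.72, permutation p = 0.00883 and 0.0170, adjusted 0.212 and 0.297). That was 0.80 without the 2 animals farthest from the median of the subunit score. Insm1 had r = -0.79 with horizontal basal cell markers (rho -0.81, permutation p = 0.00469 and 0.00504, adjusted 0.135 and 0.234), and Neurod1 had r = -0.76 (rho -0.75, permutation p = 0.00218 and 0.00522, adjusted 0.105 and 0.234). Without the 2 animals farthest from the median of that score, r was -0.84 and -0.62. Gadd45g had r = 0.79 with Notch pathway genes (rho 0.66, permutation p = 0.00139 and 0.0251, adjusted 0.10 and 0.302), which was 0.53 without the 2 farthest animals.

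**Figure D5:**
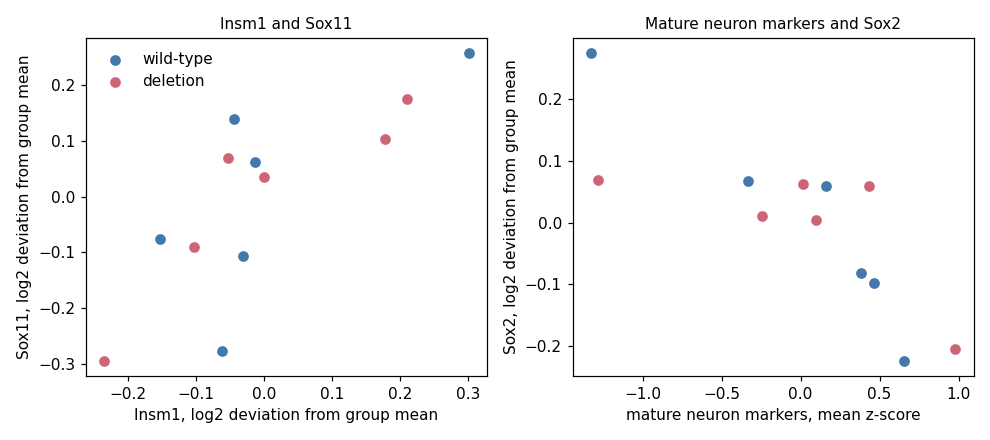
Left, Sox11 against Insm1, each as the log2 deviation from its genotype's mean; right, Sox2 against the mean z-score of the mature neuron markers. Each point is 1 of 12 animals (blue wild-type, red deletion), with r 0.79 on the left and -0.81 on the right.

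The genes that varied most like each member were picked from all genes tested as those with the highest r over the 12 animals, so these r values are maxima of many and carry no test. For Sox11 they were Zfp639 (0.97) and Dlx6os1 (0.95), an antisense RNA of the Dlx6 locus. For Ezh2 they were Nin (0.96), which encodes the centrosomal protein ninein, and Ufd1l (0.95). Insm1 was closest to Trib2 (0.94) and Ube2l6 (0.92), Neurod1 to Rnf168 (0.92) and Dnajc28 (0.91), and Neurog1 to mt-Co2 (0.87) and Trp53bp2 (0.86). Gadd45g was closest to Vars (0.96) and Upf1 (0.94), and Kit to Lins1 and Siglec1 (both 0.88). B4galnt4 (0.93) was among the genes closest to Hes6. Sox2 was closest to the pseudogene AC125115.2 (0.91) and to Cald1 (0.91).

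The mean pattern of all 9 was followed most closely by Rad51ap1 (r = 0.88), which acts in DNA repair by recombination in dividing cells. Tnfrsf25 (0.88), Trib2 (0.87), Olfr1037 (0.85) and Cdc25c (0.85), a phosphatase that starts mitosis, came next. None of these 5 passed between genotypes (limma, adjusted p of 0.955 each), and Rad51ap1 had a log2 fold change of 0.29.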

How the data were processed

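Olfactory mucosa RNA of 12 mice was sequenced from ribodepleted, stranded libraries, per the labels' protocols. STAR 2.6.0, DESeq2 and GRCm38.p6 are named, without their roles, per the submitters' processing notes. The sources used here name no read counter. The authors deposited per-gene signal values, which are counts divided by a size factor per library. Dividing by each library's step between values gave whole reads for 100.0% of values, within 0.01 read. The deposited table also holds the authors' log2 fold change, its standard error, a score (Wald statistic, not used), and a p-value from the authors, raw and adjusted. The table analysed ends within a row, and 1 incomplete row was left out.

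The test was limma 3.58.1 (R 4.3.3, trend and robust moderation) on log2(value + 1), with no covariate beside genotype. Fold changes are on that scale, which understates changes of low genes. The filter was edgeR's expression filter (minimum count 10), leaving 17320 genes. Two-sided p-values were adjusted over all of these by Benjamini-Hochberg, threshold 0.05. edgeR 4.0.16 and DESeq2 1.42.0 ran on recovered reads as alternatives. The model was tested on simulated data. Exact permutation used every assignment of 6 against 6 (smallest p 0.00216), and correlations 100000 permutations within genotype. CPM used TMM library sizes. Exon lengths and coordinates came from GENCODE M21 on GRCm38.

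The members and lists were chosen with earlier results of these data known. Named genes were all 9 members, Kitl, up to 3 genes per list by smallest p, and the genes most alike; some that this rule names are not reported here. The correlations with lists and the removal of stray-read rates were added after the data were seen. P-values over animals measure the spread between these libraries, since nothing in the labels says more of their origin than separate animals.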

Additional observations from a re-analysis of the deposited data

Results flagged for a closer look

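Over 18 sets of 6 animals (9 genes in 2 genotypes), 3 held an animal far from the others of its group, where chance gives about 0.9. Sox2 in deletion replicate 2 was at 715 normalized counts, below the other deletion animals at 826 to 864. Gadd45g in the same animal was at 156, above the others at 105 to 119. Insm1 in wild-type replicate 6 was at 1127, above the others at 823 to 906.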

How the results depend on the processing

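None of the 9 genes passed in any of 23 refitted settings. Under the 25 alternatives, which include the stray-read removal, Sox2, Neurog1, Neurod1, Insm1 and Sox11 stayed above 0. Kit was at -0.021 without deletion replicates 2, 3, 4 and 5 (2 deletion animals left), and Ezh2 at 0.0060 without deletion replicates 2 and 3. With single animals left out, Hes6 ranged from -0.013 to 0.10 and Gadd45g from -0.16 to 0.10. Over all genes, 9 were called higher and 77 lower. The higher count was 15 with DESeq2, 16 with no filter and 23 without deletion replicates 2 and 3. The lower count was 31 at a mean of at least 50 normalized counts, where fewer genes were tested. Leaving out single animals gave 6 to 17 higher (17 without deletion replicate 2) and 73 to 83 lower. Member pairs past adjustment were 0, or 0 to 1 with single animals left out (1 without wild-type replicate 4). The causes of these shifts were not tested. Animals of both genotypes share sample numbers. Their deviations correlated by -0.24 to -0.01 over the 6 pairs, so same-numbered animals did not deviate alike. This cannot tell whether they shared a litter or were handled together. The replicate block gave 5 genes higher and changed no call among the members. Depth limits Neurog1 most, at 47 to 91 reads.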
